A study of Mus musculus with 4 samples.

Results

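The unfolded protein response and the integrated stress response are 2 linked programmes with which cells adjust protein folding and protein synthesis, and 36 of their genes were followed here in mouse mammary basal cells. The 36 genes were taken by symbol from a list of chaperones of the endoplasmic reticulum (ER), genes of ER-associated degradation, stress sensors and targets of the transcription factor ATF4. All 36 were found among the 17630 genes measured. In the unfolded protein response, the ER membrane sensors IRE1, ATF6 and PERK respond to misfolded protein and raise the production of chaperones, folding enzymes and degradation factors. In the integrated stress response, PERK and related kinases phosphorylate eIF2, which lowers protein synthesis as a whole while the translation of ATF4 increases, and ATF4 in turn activates genes of amino acid synthesis and transport. In the mammary gland these programmes are best known from the secretory cells of lactation, while basal cells form the contractile outer layer of the duct and contain the mammary stem cells.

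The study asked how sympathetic nerves act on these stem cells, and RNA-seq was analysed for 4 libraries of wild-type (WT) cells. Primary basal cells were sorted from untreated mice and from mice given 6-OHDA (6-hydroxydopamine), which kills the endings of sympathetic nerves. Basal cell colonies were grown from sorted cells in Matrigel, without treatment or with SP, the β2 agonist salbutamol plus the α1 agonist phenylephrine. The labels give both control libraries the same source and treatment, so which came from sorted cells and which from colonies was read from their titles and the series design, and the comparison of colonies with sorted cells rests on that reading. There was 1 library for each condition, so no test was made, and every difference is one between 2 libraries with no replicate check. The title of the SP library carries the number 200 and that of the control colonies the number 0, without a unit. The study's methods have colonies analysed after about a week in culture, without naming the RNA-seq colonies. The strain and age of the mice and the number of animals behind a library are not given for the RNA-seq samples in the sources used here.

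The authors deposited FPKM values, which are fragments per kilobase of transcript scaled to the sequenced fragments, so levels can be set beside each other between genes. FPKM summed to 508071 in the sorted control, 517504 in the sorted 6-OHDA library, 577631 in the control colonies and 588202 in those with SP. Read counts were not used here. Judged from the steps between low FPKM values, with fragments taken as 250 bases long, a level of 1 FPKM on 1 kilobase stood for about 16.9, 16.3, 17.4 and 17.9 fragments in the same order, a rough estimate with no interval for single genes. By this estimate the member resting on the fewest fragments was Sdf2l1, with about 73.3 in the sorted control. Differences were taken as log2(FPKM + 1), a scale on which changes of low genes come out too small. Genes were called higher or lower past a log2 difference of 0.3 for the treatments and past 1 for colonies against sorted cells. The study names 0.3 for the 6-OHDA comparison, together with a limit on adjusted P that could not be applied here, and the same value was used for SP.

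The cells were checked against cell type markers. The 10 basal markers summed to 8275 FPKM in the sorted control, 7841 in the 6-OHDA library, 6075 in the control colonies and 13258 in those with SP, with Krt14 the most abundant in each. The 10 luminal markers summed to 1392, 1267, 1917 and 1834 FPKM, with Krt8 the most abundant in each, so luminal keratins were present in libraries labelled basal. In the control colonies 4 of the 10 (40.0%, and 3 with the median ratio) were higher than in the sorted control and 0 lower, near the 30.7% of all genes, among them the luminal regulators Elf5, at 0.63, 1.02, 22.5 and 18.1 FPKM, and Foxa1, at 1.42, 1.98, 15.2 and 8.32. Those 2 were low in both sorted libraries and higher in both colony libraries, while Esr1 was at 2.77, 2.85, 3.62 and 1.87 FPKM. The part of the luminal transcripts in the comparison of colonies with sorted cells was not tested. The contractile gene Myh11 stood at 467 and 449 FPKM in the sorted libraries but at 11.2 in the control colonies and 21.5 in those with SP. The colonies thus held basal keratin transcripts with little of this smooth muscle myosin. Of the 10 basal markers, 4 were lower in the control colonies than in the sorted control and 0 higher. With the median ratio 6 were lower and 0 higher. Among all genes compared, 13.2% were lower and 30.7% higher without this scaling. In such bulk samples, fewer cells of a type and less RNA per cell cannot be told apart.

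The 6-OHDA library stood apart from the rest through transcripts of salivary gland secretory genes. The 17 genes of that list summed to 2.1 FPKM in the sorted control, 16213.5 in the 6-OHDA library, 1.52 in the control colonies and 2.09 in those with SP. They took 3.13% of the FPKM sum of the 6-OHDA library, and Bpifa2 was the most abundant at 7277 FPKM. In the sorted control 13 of the 17 were at 0. Apart from Amy1, at 1.3 FPKM, the 12 genes compared were below 1 FPKM there. They reached the filter, a mean of 1 FPKM over both libraries, only through the 6-OHDA library. A count of them as higher was thus set by the filter and was not read as a result. Salivary secretory cells are rich in ER, and the part of these transcripts in the ER chaperone and disulfide isomerase values of that library was not tested. The 9 fibroblast markers also differed, summing to 194 FPKM in the sorted control, 392 in the 6-OHDA library, 45.8 in the control colonies and 27.8 in those with SP. In the 6-OHDA library 6 of these 9 were higher and 0 lower, against 15.8% and 8.35% of all genes compared. Dcn was the most abundant of these markers in the sorted libraries, and no fibroblast marker was at 0 there. Endothelial markers summed to 286 and 281 FPKM in the sorted libraries and to 1.92 and 1.80 in the colonies, although CD31 antibodies were part of the stain. The most abundant, Pecam1, which encodes CD31, was at 107 FPKM in the sorted control. Leukocyte markers summed to 15.3, 13.9, 3.37 and 4.72 FPKM, with Cd68 the most abundant, and 9 of 12 were at 0 in the control colonies. The 6 plasma cell markers summed to 192, 160.5, 366 and 608 FPKM, nearly all of it from Sdc1 at 186, 154, 362 and 605, a gene that epithelial cells also express. Prdm1 was at 4.16, 4.66, 2.31 and 2.51 FPKM, while Jchain was at 0.34, 0.45, 0 and 0.03 and Mzb1 at 0, 0.09, 0.26 and 0.17. The 5 adipocyte markers summed to 211, 375, 38.0 and 1.13 FPKM, most of it from Fabp4, the 1 gene of the list compared. Fabp4 was higher with 6-OHDA (0.83) and far lower with SP (-4.11), and endothelial cells express it too. The part of the fibroblast, adipocyte, endothelial, leukocyte and plasma cell marker transcripts in the results was not tested.

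All 36 members were expressed in each library, from 4.18 FPKM for Eif2ak3 to 959 FPKM for Hspa5, both in the sorted control. They made up 0.852% of the FPKM sum in the sorted control, 0.839% in the 6-OHDA library, 0.650% in the control colonies and 0.627% in those with SP. In the sorted control Hspa5 ranked first among them, and 89 of all genes had a higher FPKM. Atf4, Calr, Ppp1r15a and Slc3a2 came next. In the control colonies Calr ranked first, with 142 genes higher, and Hspa5, Hsp90b1, Pdia3 and Slc3a2 followed. The lowest member in the colonies was Chac1. The plot of FPKM levels by role shows that for most members the libraries paired by origin, with the treated library beside its own control.

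**Figure D1:**
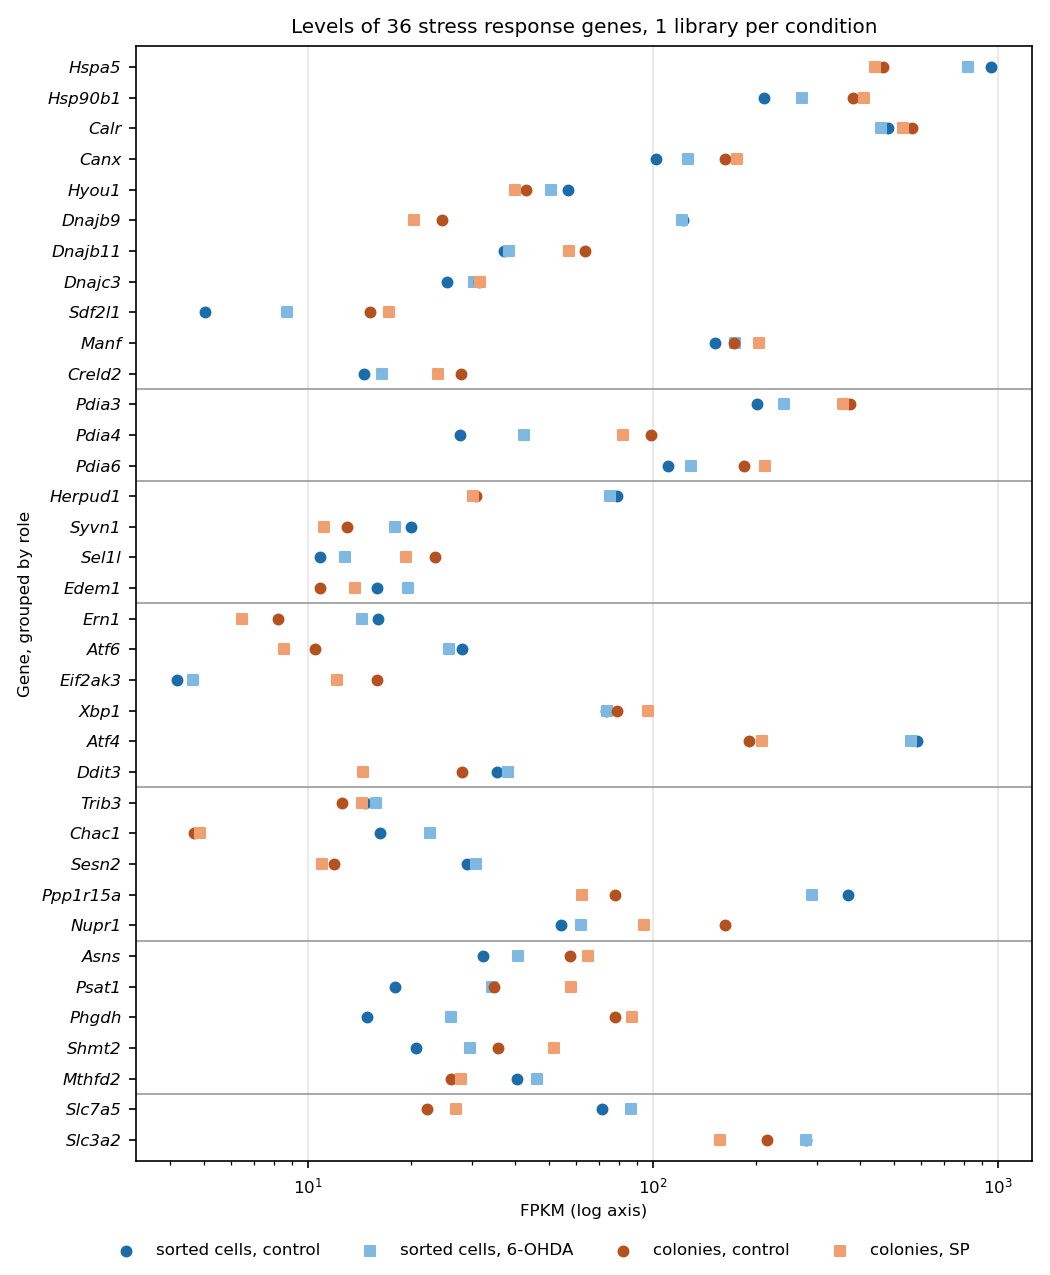
FPKM (log axis) of the 36 genes in each of the 4 libraries, with 1 point per library and lines between groups of genes with a shared role. Hspa5 runs from 443 FPKM in the SP colonies to 959 FPKM in the sorted control, and Dnajb9, Atf4 and Ppp1r15a are lower in both colony libraries than in both sorted libraries.

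In the 6-OHDA library the clearest differences among the 36 genes were higher values of serine synthesis genes and of some ER folding genes. Past the threshold, 9 members were higher, 25.0% of the 36 against 15.8% of the 11749 genes compared, and 1 was lower, 2.78% against 8.35%. Those higher were Psat1, Phgdh, Sdf2l1, Pdia4, Shmt2, Chac1, Hsp90b1, Asns and Canx, and the one lower was Ppp1r15a. The median difference of the members was 0.17, and that of all genes compared was 0.06. Among all genes compared, 65.4% of those past the threshold were higher. After scaling by the median ratio of all genes the share was 50.5%, and with quantile normalization it was 47.4%; with the median ratio 7 members were higher and 1 was lower, against 11.6% and 11.4% of all genes. Canx and Asns, just past the threshold at 0.30 and 0.33, were no longer past it with the median ratio.

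In the colonies given SP, a few stress regulators were lower than in the control colonies and a pair of serine and one-carbon genes were higher. Past the threshold, 6 members were lower, 16.7% against 19.8% of the 11849 genes compared, and 3 were higher, 8.33% against 11.7%. Both shares lay near or under those of all genes, so the counts set the members apart in neither direction. The members lower were Ddit3, Nupr1, Slc3a2, Eif2ak3, Ppp1r15a and Ern1, and those higher were Psat1, Shmt2 and Edem1. The median difference was -0.04 for the members and -0.07 for all genes compared. Among all genes past the threshold 37.1% were higher, against 49.8% with the median ratio and 47.0% with quantile normalization. With the median ratio 6 members were higher and 3 lower, against 14.8% and 14.9% of all genes, so the balance of higher and lower members turned with the scaling.

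The control colonies and the sorted control cells differed most, with many members on each side. Past a log2 difference of 1, 9 members were lower in the colonies, 25.0% against 13.2% of the 12244 genes compared, and 6 were higher, 16.7% against 30.7%. Those lower were Dnajb9, Ppp1r15a, Slc7a5, Atf4, Chac1, Herpud1, Atf6, Sesn2 and Hspa5, and those higher were Phgdh, Pdia4, Eif2ak3, Nupr1, Sdf2l1 and Sel1l. The median difference of all genes was 0.45, a shift that scaling by the median ratio takes away, and that of the members was 0.14. Relative to the median of all genes, 15 members lay above and 21 below, from -2.73 for Dnajb9 and -2.68 for Ppp1r15a to 1.35 for Pdia4 and 1.86 for Phgdh. Among all genes past the threshold 69.9% were higher, against 45.7% with the median ratio and 52.4% with quantile normalization. With the median ratio 4 members were higher and 12 lower, against 17.0% and 20.2% of all genes. Sorting and culture, time and medium come together in this comparison and cannot be told apart. The comparison shares the sorted control with the 6-OHDA comparison and the control colonies with the SP comparison.

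**Figure D2:**
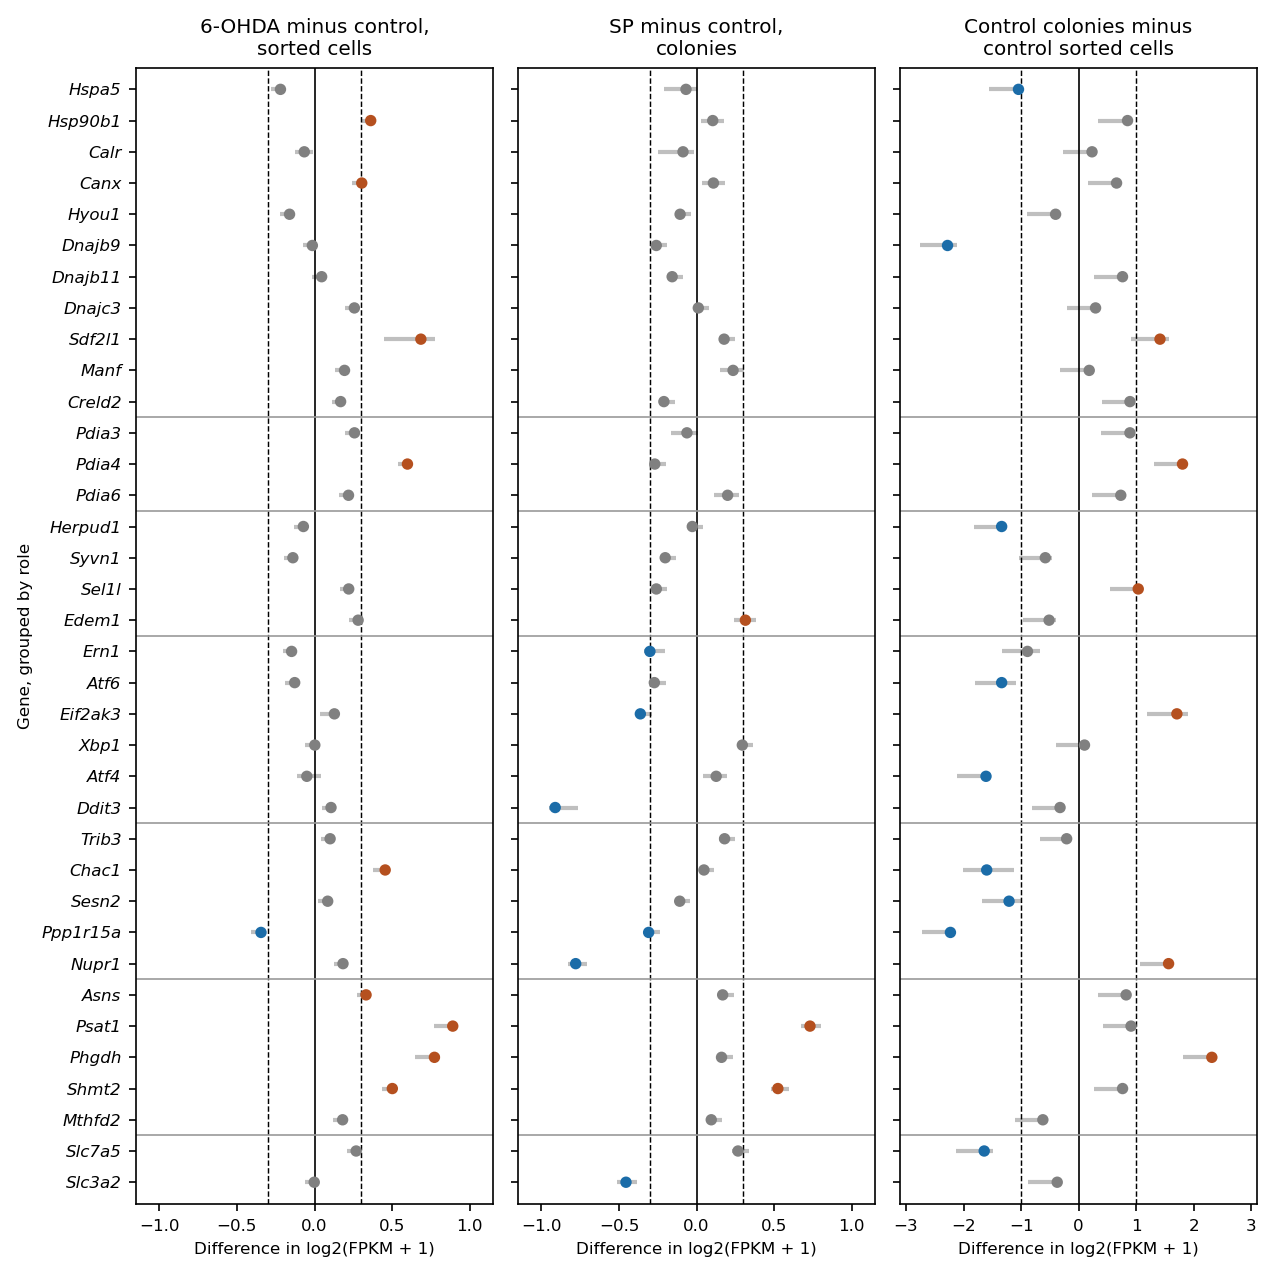
Differences in log2(FPKM + 1) of the 36 genes in 3 comparisons, each between 2 libraries, where dashed lines mark the thresholds of 0.3 and 1, red points are higher, blue points lower and grey points within them, and grey bars give the range over other pseudocounts and scalings. Psat1 lies above the threshold with 6-OHDA and with SP, Ddit3 below it with SP, and Dnajb9 and Phgdh lie farthest apart in the comparison of colonies with sorted cells.

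The ER chaperones and co-chaperones were the largest group, with 11 members. With 6-OHDA 3 were higher and 0 lower, with SP 0 and 0, and in the control colonies against the sorted control 1 was higher and 2 were lower. Those higher with 6-OHDA were 27.3% of the group, against 15.8% of all genes compared. With SP, 11.7% of all genes were higher and 19.8% lower. With the median ratio 2 of the 11 were higher with 6-OHDA and 1 with SP, and 0 were lower in either. The shares of all genes higher were then 11.6% and 14.8%. Between the controls those higher were 9.09% and those lower 18.2%, against 30.7% and 13.2%. Hspa5 encodes BiP, the ER HSP70 that holds the sensors inactive, and was at 959 FPKM in the sorted control, 824 in the 6-OHDA library, 464 in the control colonies and 443 in those with SP. It was highest in fresh cells, and neither treatment moved it past the threshold (log2 difference -0.22 with 6-OHDA and -0.07 with SP). Hsp90b1, which encodes the ER HSP90 protein GRP94, ran the other way, at 211, 271, 380.5 and 409 FPKM. It was higher with 6-OHDA (0.36), and its values were highest in the colonies. Between the controls the difference of Hsp90b1 was 0.85, within the threshold, with 0.34 to 0.85 over the other pseudocounts and scalings. The ratio of Hspa5 to Hsp90b1 was 4.55, 3.04, 1.22 and 1.08 in the same order, so Hspa5 exceeded Hsp90b1 far more in fresh cells than in colonies.

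The other chaperones also differed among themselves. Dnajb9 encodes ERdj4, a BiP co-chaperone that acts on IRE1, and was at 123, 122, 24.5 and 20.3 FPKM. The sorted libraries were alike and both colony libraries were far lower, with a log2 difference of -2.28 between the controls. Sdf2l1, an ER protein of the BiP chaperone complex, was at 5.05, 8.73, 15.1 and 17.2 FPKM. It was low in the sorted control, higher with 6-OHDA (0.69, with 0.45 to 0.78 over the other pseudocounts and scalings) and highest in the colonies. The lectin chaperone Canx was at 103, 127, 163 and 175 FPKM, and its soluble relative Calr at 482, 460.4, 567 and 533. Calr was within the threshold in each comparison. Dnajb11 and Creld2 had higher values in both colony libraries than in both sorted ones and Hyou1 had lower ones, all within the threshold between the controls, and Dnajc3 and Manf differed by less than 0.3 in each comparison. For the chaperones as a group, the median in the control colonies against the sorted control was 0.29, and it turned to -0.19 with the median ratio, under which 0 were higher and 2 lower.

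The protein disulfide isomerases form and rearrange the disulfide bonds of secreted proteins. The summed FPKM of the 3 members was 339 in the sorted control, 411 in the 6-OHDA library, 656 in the control colonies and 651 in those with SP. Pdia4 was at 27.6, 42.3, 98.9 and 81.9 FPKM. It was higher with 6-OHDA (0.60) and higher still in the control colonies (1.81 against the sorted control). Pdia3, which works with calnexin and calreticulin on glycoproteins, was at 200.4, 239.7, 373 and 357 FPKM, and Pdia6 at 111, 129, 185 and 212. Both were lower in the sorted libraries than in the colonies, like Pdia4, and both were within 0.3 with each treatment and within 1 between the controls. With SP, Pdia4 was at -0.27 and Pdia6 at 0.20, both within the threshold.

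ER-associated degradation carries misfolded proteins out of the ER to the proteasome. Its 4 members moved apart from each other. Herpud1, a scaffold of the ubiquitin ligase complex at the ER membrane, was at 79.1, 75.2, 30.7 and 30.1 FPKM. It was lower in the control colonies than in the sorted control (-1.34), and the treated libraries lay beside their controls. Sel1l, the adaptor of the ligase encoded by Syvn1, was at 10.9, 12.8, 23.4 and 19.4 FPKM, and Syvn1 itself at 19.9, 18.0, 13.0 and 11.2. Between the controls Sel1l differed by 1.04, just past the threshold, and was past it under 1 of the 6 other pseudocounts and scalings (0.55 with the median ratio), while Syvn1 was within the threshold at -0.58. Edem1, which delivers glycoproteins for degradation, was at 15.9, 19.6, 10.9 and 13.8 FPKM, and was just past the threshold with SP at 0.31, with 0.24 to 0.38 over the other pseudocounts and scalings.

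The 3 sensors did not move together. Ern1, which encodes IRE1α, was at 16.0, 14.4, 8.19 and 6.46 FPKM, and Atf6 at 28.1, 25.6, 10.5 and 8.53. Both were lower in the colonies, Atf6 by -1.34 between the controls and Ern1 by -0.89, which is within the threshold. Ern1 was past it under 4 of the 6 other pseudocounts and scalings. Eif2ak3, which encodes PERK, was the lowest member in the sorted control and was at 4.18, 4.66, 15.9 and 12.2 FPKM. It was higher in the control colonies than in the sorted control, by 1.71. With SP each of the sensors was lower than in the control colonies, with Eif2ak3 at -0.36, Ern1 at -0.30, just past the threshold, and Atf6 at -0.27, just within it. Neither Eif2ak3 nor Ern1 was past the threshold with the median ratio. With 6-OHDA no sensor was past it.

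The transcription factors of the group act downstream of the sensors. Xbp1, whose mRNA IRE1 splices, was at 73.5, 73.6, 79.0 and 97.1 FPKM. The first 3 libraries were alike and the SP colonies were somewhat higher. The log2 difference with SP was 0.29, within the threshold, and 0.37 with the median ratio, past it. FPKM per gene does not separate spliced from unspliced Xbp1. Atf4 was at 583, 563, 190.3 and 208 FPKM. It was high in both sorted libraries and lower in both colony libraries, with a difference of -1.61 between the controls. ATF4 is controlled mainly in translation, which these values do not measure. Ddit3 encodes CHOP, a factor linked to cell death under lasting stress, and was at 35.4, 38.2, 28.1 and 14.5 FPKM. The SP colonies were the low library, with the largest difference of any member in that comparison (-0.91), and about 90.9 fragments stood behind that value by the depth estimate. The ratio of Ddit3 to Atf4 was 0.0607, 0.0678, 0.148 and 0.0696, highest in the control colonies.

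Of the 5 stress regulators downstream of ATF4, 3 were lower in the control colonies than in the sorted control and 1 was higher, where 13.2% and 30.7% of all genes were. Ppp1r15a encodes GADD34, which directs a phosphatase to eIF2 and so restores protein synthesis, and was at 368, 289, 77.7 and 62.5 FPKM. It was lower with 6-OHDA (-0.35), lower with SP (-0.31) and far lower in the control colonies than in the sorted control (-2.23). With the median ratio the SP difference was no longer past the threshold. Chac1, which breaks down glutathione, was at 16.2, 22.6, 4.68 and 4.87 FPKM. It was higher with 6-OHDA (0.46) and low in both colony libraries. Sesn2, an inhibitor of mTORC1 signalling, was at 28.9, 30.7, 11.9 and 11 FPKM. The sorted libraries were alike and the colonies lower. Nupr1, a small stress-induced chromatin protein, was at 54.4, 61.9, 163 and 94.4 FPKM. It was the exception of the group, higher in the control colonies (1.56), and with SP it was lower than in the control colonies (-0.78). Trib3, a pseudokinase that restrains CHOP and ATF4, was between 12.6 and 15.8 FPKM in all 4 libraries.

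The genes of serine, one-carbon and asparagine synthesis were the group with the most members past the threshold under 6-OHDA, 4 of 5, and 2 of 5 were past it with SP, with 0 lower in either. The shares of all genes higher were 15.8% and 11.7%. Scaled by the median ratio, 3 of 5 were past it under 6-OHDA. Their summed FPKM was 126 in the sorted control, 177 in the 6-OHDA library, 232 in the control colonies and 290.1 in those with SP. Psat1, an aminotransferase of serine synthesis, was at 18.0, 34.2, 34.6 and 58.2 FPKM. Each treated library was above its own control, at 0.89 with 6-OHDA and 0.73 with SP, the largest positive difference of any member in both. Phgdh, the first enzyme of the pathway, was at 14.9, 26.1, 77.9 and 87.2 FPKM. It was higher with 6-OHDA (0.77) and, between the controls, much higher in the colonies (2.32), while the difference with SP was 0.16. The mitochondrial Shmt2, which passes a carbon unit from serine to folate, was at 20.6, 29.6, 35.7 and 51.8 FPKM. It was higher with 6-OHDA (0.50) and with SP (0.52). Asns, the asparagine synthetase, was at 32.2, 40.8, 57.8 and 65.1 FPKM, with a difference of 0.33 under 6-OHDA. Mthfd2, the next mitochondrial enzyme of the folate pathway, was at 40.6, 46.1, 26.0 and 27.8 FPKM. Alone in this group it was lower in colonies, at -0.62 between the controls and within the threshold.

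Amino acid transport was represented by both chains of one transporter. Slc7a5 encodes LAT1, which carries large neutral amino acids, and was at 71.5, 86.3, 22.3 and 27.0 FPKM. It was lower in the control colonies than in the sorted control (-1.64). At 0.27 with each treatment, Slc7a5 was within the threshold. With SP, Slc7a5 was past it under 2 of the 6 other pseudocounts and scalings. Slc3a2, its heavy chain CD98, was at 278, 278, 215 and 156 FPKM. It was alike in the sorted libraries and lower with SP (-0.46). The ratio of the heavy chain to LAT1 was 3.89, 3.22, 9.66 and 5.80, highest in the control colonies. The heavy chain also pairs with other transporters.

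The 6-OHDA and SP comparisons share no library. Of the 10799 genes compared in both, 306 were higher with each treatment and 198 lower with each, while 280 were higher with 6-OHDA and lower with SP and 117 the reverse. Among the members, Psat1 and Shmt2 were higher with each, Ppp1r15a was lower with each, and 0 moved in opposite directions.

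Further genes of the same pathways were read from lists, to be set beside the shares of all genes, 15.8% higher and 8.35% lower with 6-OHDA, 11.7% and 19.8% with SP, and 30.7% and 13.2% between the controls. Among 25 further ER folding and degradation genes, 5 were higher and 0 lower with 6-OHDA, 2 and 2 with SP, and 7 and 1 in the control colonies against the sorted control. The shares higher, 20% with 6-OHDA and 28.0% between the controls, were near those of all genes. Their medians were 0.08, -0.05 and 0.18, and the last turned to -0.26 with the median ratio, under which the counts were 2 and 0, 4 and 1, and 4 and 2. Ero1a, an oxidase that recharges the disulfide isomerases, was at 32.4, 44.0, 25.7 and 48.5 FPKM. It was higher with 6-OHDA (0.43) and with SP (0.89). Dnajc10, an ER reductase that works with BiP, was at 14.8, 19.7, 58.4 and 47.8 FPKM, higher in the colonies as Pdia4 was. Among 22 genes of the ER translocon and of transport from the ER, 6 were higher and 0 lower with 6-OHDA, 2 and 0 with SP, and 7 and 0 between the controls, where their median of 0.46 turned to -0.04 with the median ratio. The counts then were 4 and 0, 3 and 0, and 2 and 2. Spcs3, a subunit of the signal peptidase, was at 7.68, 12.9, 30.3 and 36.8 FPKM, with the same order of libraries as Sdf2l1.

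The partners and proteases of the sensors had 12 genes compared, of which 1 was higher and 1 lower with 6-OHDA, 1 and 2 with SP, and 5 and 1 between the controls. The last counts were 2 and 2 with the median ratio. Mbtps2, a protease that releases ATF6 from the membrane, was at 2.12, 3.12, 10.4 and 10.2 FPKM, so it was higher in the colonies where Atf6 was lower. Among 14 genes of the eIF2 kinases, the eIF2 phosphatase and eIF2B, 0 were higher and 1 lower with 6-OHDA, 1 and 0 with SP, and 1 and 1 between the controls, where their median of 0.18 turned to -0.31 with the median ratio and the counts were 0 and 1. Eif2ak2, the interferon-induced kinase PKR, was at 19.5, 13.1, 13.2 and 14.8 FPKM and was the one lower with 6-OHDA (-0.54). Ppp1r15b, the constitutive relative of Ppp1r15a, was at 65.6, 65.1, 25.2 and 24.6 FPKM. It was lower in the colonies, as Ppp1r15a was, and close to its control with each treatment.

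Among the further ATF4-linked genes, 9 of 29 were higher and 3 lower with 6-OHDA, with a median of 0.16. With SP 7 of 30 were higher and 7 lower, and between the controls 7 of 30 were higher and 6 lower. With the median ratio these counts were 5 and 4 with 6-OHDA, 8 and 4 with SP, and 2 and 11 between the controls, so the near-even balance of the last rested on the scaling. Pycr1, an enzyme of proline synthesis, was at 0.61, 1.63, 2.34 and 3.24 FPKM, low throughout, and higher with 6-OHDA by 0.71. Atf3, a stress-induced repressor that ATF4 activates, was at 394, 364, 35.3 and 16.6 FPKM. It was lower with SP (-1.04) and far lower in the control colonies than in the sorted control (-3.44). Sqstm1, an autophagy receptor and the most abundant gene of the list in the sorted control, was at 881, 816, 188 and 145 FPKM, with the same order. Slc1a5 was lower (-2.53) and Slc1a4 higher (2.42) in the control colonies, both of them carriers of neutral amino acids.

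Hypoxia-induced genes, several of which are also raised by ER stress, had higher values with SP. Of 19 compared, 13 were higher and 0 lower, 68.4% against 11.7% of all genes, with a median of 0.89. Other lists moved with SP too, as 7 of 10 basal markers were higher and 1 lower, with a median of 0.86, and 3 of 3 milk protein genes compared were higher. Luminal markers were lower in 4 of 10 (3 with the median ratio) and higher in 0, and fibroblast markers lower in 4 of 6 and higher in 1. Of all genes compared, 19.8% were lower with SP. Bnip3 was at 5.77, 11.9, 12.9 and 111 FPKM, and Car9 at 1.95, 2.10, 2.93 and 25.1. Both were high in the SP colonies and low in the other libraries. With 6-OHDA 6 of 20 were higher and 0 lower, and in the control colonies against the sorted control 1 of 20 was higher and 11 were lower. All genes had 15.8% higher and 8.35% lower in the first of these and 30.7% and 13.2% in the other, and scaling by the median ratio gave counts of 6 and 1, and 0 and 14. Ero1a belongs to the hypoxia list too, and was among its 13 genes higher with SP. The part of the hypoxia, basal, luminal, milk protein and fibroblast genes in the SP results of the members was not tested.

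The promoters of the members were read for the letters of known response elements. RefSeq promoter windows from 250 bases before to 50 after the start (GRCm38.p6, the build named mm10 in the submitters' notes) were used for 32 of the 36 members, and Hyou1, Manf, Atf6 and Slc7a5 are named only. The ER stress response element, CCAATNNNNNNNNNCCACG on either strand, was found in the windows of 8 of the 32 genes, against 24 of all 13833 genes (0.173%). Those 8 were Hspa5, Hsp90b1, Calr, Canx, Dnajc3, Creld2, Pdia6 and Syvn1. Its last part alone, CCACG, was found in 25 of 32 members and in 47.0% of all genes, so it occurs in many promoters. The element TGATGNAA, bound by ATF4 with C/EBP factors, was found in 5 members (Herpud1, Trib3, Chac1, Nupr1 and Asns) and in 3.09% of all genes. The letters TGACGTGG of the unfolded protein response element were found in 0 of 32 members and in 0.969% of all genes. The members were listed as genes of these responses, and all genes include them, so no excess was read from these shares.

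The stretches that hold the full ER stress response element are shown for the members other than Canx, 5′ to 3′ on the strand of the gene, because these genes share the element and differed in how their levels moved. Capitals mark both outer parts of the element, which read CGTGG and ATTGG where it lies on the opposite strand. The Hsp90b1 stretch holds 2 elements, one in each orientation. They lie at chr2:34772015-34772053 (+) for Hspa5, chr10:86705523-86705666 (-) for Hsp90b1, chr8:84847065-84847103 (-) for Calr, chr12:17266481-17266519 (+) for Pdia6, chr14:118937817-118937855 (+) for Dnajc3, chr15:88819510-88819548 (+) for Creld2 and chr19:6046522-6046560 (+) for Syvn1, each upstream of the annotated start.
Hspa5: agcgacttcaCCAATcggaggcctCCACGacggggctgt
Hsp90b1: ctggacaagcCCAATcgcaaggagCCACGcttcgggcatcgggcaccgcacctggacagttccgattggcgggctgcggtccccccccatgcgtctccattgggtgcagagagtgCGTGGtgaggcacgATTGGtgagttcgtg
Calr: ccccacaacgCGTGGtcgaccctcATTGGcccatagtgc
Pdia6: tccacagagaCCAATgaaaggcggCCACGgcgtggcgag
Dnajc3: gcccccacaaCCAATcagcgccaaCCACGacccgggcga
Creld2: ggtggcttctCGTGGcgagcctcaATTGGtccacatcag
Syvn1: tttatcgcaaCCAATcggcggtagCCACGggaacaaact

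The 8 members with the element did not move as 1 group. With 6-OHDA 2 of the 8 were higher (Hsp90b1 and Canx) and 0 lower, where 15.8% and 8.35% of all genes were, and with SP 0 were past the threshold. Between the controls their differences ran from -1.05 for Hspa5 to 0.89 for Creld2, with 1 lower and 0 higher. Hspa5 was lower in the colonies while Hsp90b1, Creld2 and Pdia6 had higher values there. The match of letters describes the window and was not read as binding. Of the other genes with the element, 2 of 9 compared were higher and 1 lower with 6-OHDA, 1 of 7 was higher and 1 lower with SP (11.7% and 19.8% of all genes), and 3 of 9 were higher and 0 lower between the controls (30.7% and 13.2%).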

How the data were processed

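Total RNA from sorted basal cells and basal cell colonies was sequenced from DNBSEQ mRNA libraries. The authors deposited FPKM values with 2 decimals, which had been made before the present work. The submitters' processing notes name mm10, Bowtie2, RSEM 1.3.1 and DESeq2 1.4.5, without role or order, and the annotation is not given in the sources used here. Gene numbers were matched to NCBI Gene in the RefSeq table of GRCm38.p6 (17512 of 17630). FPKM are not counts, and with 1 library per condition no test was made. Values were compared as log2(FPKM + 1) where the mean FPKM of both libraries reached 1. Members and lists were chosen with earlier results of these data known. All 36 members could be named, and of each other list the most abundant gene and at most 3 with the largest change in a comparison. Some genes were named outside this rule, among them Jchain, Mzb1, Csn2 and Wap. Other settings tried were pseudocounts of 0.1 and 5, no filter, a mean FPKM reaching 5, scaling to the same sum (with and without salivary genes), median ratio or quantiles, the other threshold, and the mean over members. Code was tested on simulated data. Python 3.11.15, numpy 2.4.6, pandas 2.3.3 and matplotlib 3.10.9 were used.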

Additional observations from a re-analysis of the deposited data

How the results depend on the processing

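No member turned from higher to lower past the threshold. With the log2 threshold set to 1, 0 members were higher and 0 lower with 6-OHDA, and 0 were higher and 0 lower with SP, so the treatment differences were all smaller than 1. With SP, the median ratio gave 6 members higher and 3 lower, and a pseudocount of 5 gave 3 lower. In the control colonies against the sorted control, a threshold of 0.3 gave 15 members higher and 16 lower. There the median of the members, 0.14, was -0.0403 with scaling to the same sum, with or without the salivary genes, -0.36 with the median ratio and 0.0413 with quantile normalization, and the mean over members was -0.0069. Under all 6 other pseudocounts and scalings, 7 of the 9 members higher and the 1 lower with 6-OHDA were still past the threshold. With SP these were Psat1 and Shmt2 among the higher and Ddit3, Nupr1 and Slc3a2 among the lower, and between the controls 4 of 6 higher and 9 of 9 lower. The cause of these shifts was not tested beyond the scalings themselves. No paired analysis was possible because there was 1 library per condition, and for the same reason none could be left out.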

Other observations

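Cytosolic heat shock genes, which respond to misfolded protein outside the ER, were read beside the ER chaperones. With 6-OHDA 3 of 18 were higher and 3 lower (16.7% each, against 15.8% and 8.35% of all genes), with SP 4 were higher and 1 lower (22.2% and 5.56%, against 11.7% and 19.8%), and in the control colonies against the sorted control 2 were higher and 7 lower, with a median of -0.66 there. Of the list 38.9% was lower between the controls, against 13.2% of all genes. Scaled by the median ratio, the counts were 3 higher and 7 lower with 6-OHDA, 6 and 1 with SP, and 1 and 11 between the controls. Hspa8, the constitutive HSP70 and the most abundant of the list, was at 2082 FPKM in the sorted control, 1699 in the 6-OHDA library, 1279 in the control colonies and 1400.1 in those with SP. Hspa1a, the inducible HSP70, was at 154, 103, 35.9 and 42.5 FPKM, and its co-chaperone Bag3 at 238, 178, 31.9 and 30.9. Both were highest in the sorted control, lower with 6-OHDA and lowest in the colonies. Among 20 cytosolic aminoacyl-tRNA synthetases, many of them ATF4 targets, 4 were higher and 0 lower with 6-OHDA, 0 and 0 with SP, and 6 and 0 between the controls, where the median of 0.11 turned to -0.39 with the median ratio. The counts then were 1 and 0, 0 and 0, and 2 and 1. The shares higher, 20% with 6-OHDA and 30.0% between the controls, were near the 15.8% and 30.7% of all genes. Among 12 mitochondrial chaperones and proteases, 3 were higher and 0 lower with 6-OHDA, 0 and 1 with SP, and 3 and 0 between the controls. Those higher were 25.0% of the list in the first and the last comparison, against 15.8% and 30.7% of all genes, and with the median ratio the counts there were 1 and 0, and 1 and 1.

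Immediate early genes, named after their values were seen, stood beside Atf3 and Ppp1r15a. Fos was at 809, 666, 347 and 171 FPKM, and Egr1 at 507, 394, 34.9 and 28.5. Both were highest in the sorted control and lowest in the SP colonies. Jun was at 279, 250.03, 346 and 264 FPKM, and did not share that order. The proliferation genes Mki67 and Top2a, also named after their values were seen, were at 2.31, 6.70, 21.8 and 33.9 FPKM and at 2.59, 9.68, 40.0 and 70.9 FPKM. They were lowest in the sorted control and highest in the SP colonies. The milk protein genes moved apart from each other. Glycam1, the most abundant of them in the sorted control, was at 4730 FPKM there, 2171 in the 6-OHDA library, 0.16 in the control colonies and 0 in those with SP. Which cells the Glycam1 transcripts came from was not tested. Csn3 was at 38.4, 104, 6.41 and 19.0 FPKM, higher with 6-OHDA (1.41) and with SP (1.43), and Csn1s1 at 0.05, 0.10, 30.8 and 89.8, near 0 in both sorted libraries and highest with SP. Csn2 and Wap were at 0 in all libraries but the SP colonies, where they were at 0.13 and 0.21 FPKM.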
